A study of Mus musculus with 2 samples.

Results

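The genes Sox10, Foxd3, Erbb3, Ednrb, Ngfr, Fabp7 and S100b, which mark Schwann cells and the neural crest, were examined for accessible chromatin in the mouse adrenal gland. They are 7 of 21755 protein-coding genes annotated on chromosomes 1 to 19 and X, and were listed by name as markers of the lineage. DNase-seq, which maps open chromatin by the cuts of the enzyme DNase I, had been run on adrenal gland tissue of female B6CASTF1/J mice aged 4 days, a first-generation hybrid strain. The 2 libraries form 1 group and are labelled biological replicates 1 and 2. Each label speaks of 3 females, and both name a single donor, so it is unclear how far the libraries come from separate animals. The spread between them may therefore be partly technical. There was no second group, so no test was made, and every value is given for each library. For each gene the peaks overlapping 1 kb to either side of each transcription start site (TSS) in the annotation, the distal peaks within 100 kb of its 5′ end, the footprints and the false discovery rate (FDR) of the local cut rate were read from the authors' lists. A footprint is a short run of bases inside open chromatin that DNase I cut less, as under a bound protein.

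The neural crest is a population of embryonic cells that leaves the forming spinal cord and gives rise to peripheral neurons, Schwann cells, pigment cells and the chromaffin cells of the adrenal medulla. In the mouse, many chromaffin cells arise from Schwann cell precursors that reach the gland along its nerves, and those precursors carry Sox10, Erbb3 and Foxd3. Schwann cells of the nerve fibres remain in the gland among steroid-producing cortex cells, which make up most of it. In such a mixed tissue, fewer cells of a type and a less open site in each cell cannot be told apart. No RNA was measured in these libraries, and an accessible promoter is not a measure of expression.

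Of the 7 genes, Erbb3, Ednrb and Fabp7 had a promoter peak in both libraries. Foxd3 had one in replicate 2 alone, and Sox10, Ngfr and S100b had none. The share of all coding genes with a TSS peak in both libraries was 61.3%, in replicate 2 alone 5%, in replicate 1 alone 0.869% and in neither 32.8%. By library, 3 of the 7 were open in replicate 1, against 62.2% of coding genes, and 4 in replicate 2, against 66.3%. The 3 genes open in both were so in the stricter lists too, against 54.8%. With 7 genes these counts are a description and were not tested against those shares. The promoter peaks that were present had low to middling signal. The sequences at the sites that the results turn on are printed 5′ to 3′ on the strand of the gene, from NCBI's GRCm38.p6, the mm10 build, and capitals mark the bases inside a replicate 2 footprint. The first 4 are the strongest promoter peaks of replicate 2 at the genes that had one. The fifth is the intron peak of Ngfr nearest to its 5′ end, and the last is the shared peak upstream of Sox10. No sequence was chosen for S100b, whose shared distal peaks lay 49922 and 51672 bp upstream.
Fabp7 promoter, chr10:57784741-57784900, plus strand: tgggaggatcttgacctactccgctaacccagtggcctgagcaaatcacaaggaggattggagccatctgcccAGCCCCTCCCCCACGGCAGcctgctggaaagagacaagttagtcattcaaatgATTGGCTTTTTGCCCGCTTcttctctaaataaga
Erbb3 promoter, chr10:128590481-128590660, minus strand: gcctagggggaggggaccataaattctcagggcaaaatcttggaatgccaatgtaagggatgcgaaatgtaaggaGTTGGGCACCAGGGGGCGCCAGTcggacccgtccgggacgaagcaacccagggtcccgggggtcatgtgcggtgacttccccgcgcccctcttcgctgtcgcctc
Ednrb promoter, chr14:103843601-103843820, minus strand: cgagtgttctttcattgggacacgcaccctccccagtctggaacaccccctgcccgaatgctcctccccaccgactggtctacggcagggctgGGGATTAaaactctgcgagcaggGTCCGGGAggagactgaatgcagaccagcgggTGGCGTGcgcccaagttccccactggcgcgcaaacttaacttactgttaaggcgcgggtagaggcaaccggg
Foxd3 promoter, chr4:99656035-99656154, plus strand: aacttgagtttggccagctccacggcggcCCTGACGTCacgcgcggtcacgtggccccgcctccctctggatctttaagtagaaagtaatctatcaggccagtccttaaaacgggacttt
Ngfr intron, chr11:95586301-95586500, minus strand: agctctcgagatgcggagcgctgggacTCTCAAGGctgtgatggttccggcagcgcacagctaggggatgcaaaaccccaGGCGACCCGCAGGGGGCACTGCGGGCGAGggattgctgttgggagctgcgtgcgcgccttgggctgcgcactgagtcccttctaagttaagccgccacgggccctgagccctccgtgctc
Sox10 upstream, chr15:79224801-79225000, minus strand: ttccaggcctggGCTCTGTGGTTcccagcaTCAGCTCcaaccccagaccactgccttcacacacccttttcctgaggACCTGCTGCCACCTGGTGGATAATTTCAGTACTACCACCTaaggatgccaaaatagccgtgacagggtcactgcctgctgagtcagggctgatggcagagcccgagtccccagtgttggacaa

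**Figure D1:**
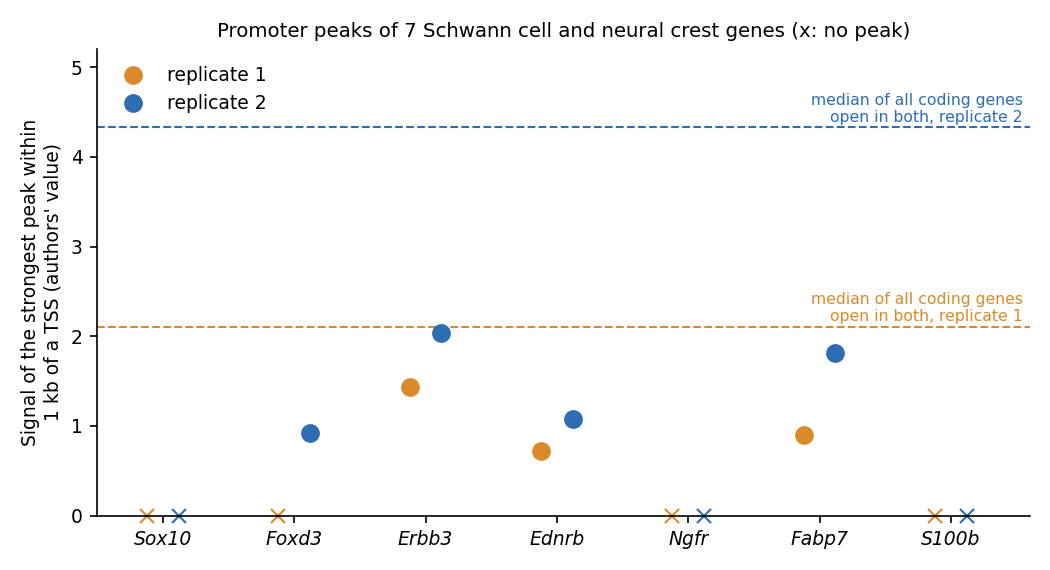
Signal, in the authors' units, of the strongest peak within 1 kb of a TSS of each gene, with replicate 1 and replicate 2 as separate points, crosses where no peak was called, and dashed lines at the medians of all coding genes open in both libraries. Each point lies below the median of its own library.

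Of the transcription factors, neither Sox10 nor Foxd3 had an accessible promoter in both libraries. Sox10, the SRY-box factor on which peripheral glia depend, lies on chromosome 15 from 79154908 to 79165240 on the minus strand and has 4 annotated TSSs. Neither library had a peak, a footprint or a base with an FDR below 0.05 in its 2767 bp of TSS windows. The lack of listed positions reached far beyond the promoter. From 59483 bp upstream of the 5′ end to 16362 bp downstream in replicate 1, and from 59518 to 16353 bp in replicate 2, no position below 0.05 was listed, and the whole gene lay in this stretch. Such a stretch was not unusual for a closed gene: 68% of the 7133 coding genes without a TSS peak in either library had one as long in replicate 1, and 48.2% had one in replicate 2.

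Sox10 has several conserved enhancers upstream in the mouse genome that drive it in the neural crest and its glia. The positions of these enhancers were not analysed here, so the 100 kb upstream were read in steps of 10 kb. In the first 50 kb neither library had a peak, a footprint or a base below 0.05. The single distal peak found by both libraries within 100 kb upstream was centred 59661 bp from the 5′ end, in an intron of the non-coding gene Gm10863. It had a signal of 2.08 in replicate 1 and of 5.49 in replicate 2, higher than 83.4% and 93.7% of all peaks in these libraries, and its lowest FDR was 1.11e-12 and 1.13e-19. The nearest coding TSS, that of Pick1, lay 4272 bp away, and both peaks further upstream that the libraries shared were centred within 1 kb of a Pick1 TSS. Replicate 2 alone had weaker distal peaks 83845 and 97361 bp upstream, with 0.871 and 0.730.

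Downstream of Sox10 the libraries shared 2 distal peaks, both nearer to other genes. The stronger, with 1.59 in replicate 1 and 5.04 in replicate 2, was centred 16479 bp from the 5′ end in an intron of Polr2f, a subunit of RNA polymerases, 1046 bp from its TSS. The weaker, with 0.785 and 1.58, lay 67521 bp from the 5′ end, and Micall1 was the nearest coding gene.

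**Figure D2:**
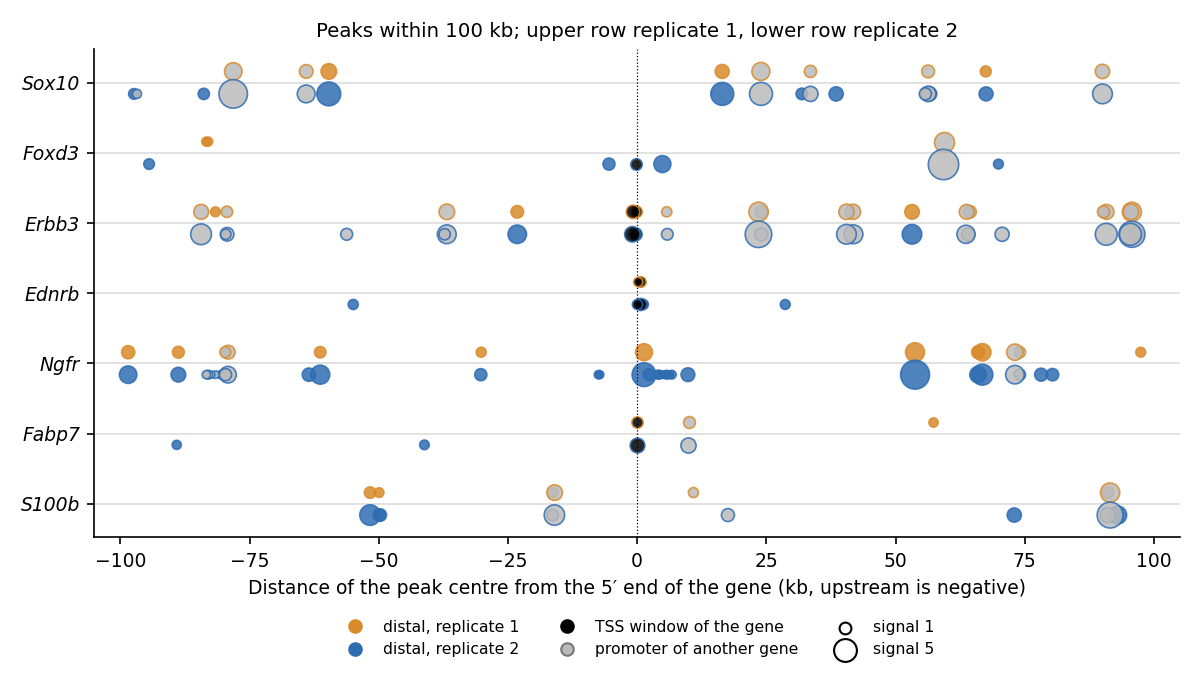
Peaks within 100 kb of the 5′ end of each gene by distance from it in kb, upstream negative, replicate 1 in the upper and replicate 2 in the lower row of each gene. Symbol area grows with the authors' signal; black marks peaks in the gene's own TSS windows and grey those at promoters of other genes. Sox10 has an empty stretch across its whole body, and Ngfr has the most distal peaks.

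Foxd3, a forkhead factor of the early crest and of glial precursors, is an intron-free gene on chromosome 4 from 99656299 to 99658622. Its promoter was called in replicate 2 alone, 204 bp upstream of the TSS. The signal there was 0.924, higher than 28.4% of promoter peaks, the lowest FDR was 0.0204 over 116 bases below 0.05, and the stricter list of peaks did not hold it. Replicate 1 listed no base below 0.05 for 141913 bp around this TSS. A stretch at least as long was found there at 19.6% of all coding genes and at 51.5% of those closed in both libraries. Replicate 2 also had a peak 4892 bp downstream of the TSS with a signal of 2.57 and a lowest FDR of 3.29e-06, which was in the stricter list, and one 5443 bp upstream with 1.06. For both of these Foxd3 was the nearest coding gene, and neither was found in replicate 1. Foxd3 was among 3 of the 7 genes with no distal peak shared by the libraries.

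The receptors differed from one another. Erbb3, which binds neuregulin 1 and pairs with Erbb2 in Schwann cells, lies on chromosome 10 from 128567523 to 128589652 on the minus strand. By the strongest peak in the TSS windows it had the highest signal of the 7 genes in each library. Both libraries placed 2 peaks at its promoter, and both libraries had them in the stricter list. The stronger was centred 799 bp upstream of the TSS in replicate 1, with a signal of 1.43, and 919 bp upstream in replicate 2, with 2.04. These values exceeded 58.1% and 59.3% of promoter peaks. The peak nearer to the TSS, centred 102 bp upstream in replicate 1 and 259 bp upstream in replicate 2, had 0.921 and 1.24. By that peak Erbb3 stood below Fabp7 in replicate 2, where Fabp7 had 1.81. Of 9 footprints in replicate 1 and 5 in replicate 2, 3 in each overlapped one of the other library.

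Ednrb, the endothelin receptor B that crest cells need to reach the gut and skin, lies on chromosome 14 from 103814625 to 103844402 on the minus strand, with 3 TSSs over 707 bp. Its strongest promoter peak had 0.725 in replicate 1 and 1.07 in replicate 2, higher than 24.3% and 35.3% of promoter peaks. It lay 691 bp inside the gene in replicate 2, within 15 bp of an internal TSS. The peak nearest to the 5′ end had 0.418 and 0.624, and neither library had it in the stricter list. In all TSS windows of Ednrb replicate 1 had 2 footprints and replicate 2 had 6, and none overlapped between the libraries. Over all promoter peaks, 48.4% of the footprints of replicate 1 and 41.8% of those of replicate 2 overlapped one of the other library. No distal peak was shared within 100 kb of Ednrb. Upstream of its 5′ end replicate 1 listed no FDR below 0.05 for 194590 bp, while replicate 2 had a peak of 0.607 in that stretch, 54930 bp upstream, with a lowest FDR of 0.00821. Replicate 2 also had one of 0.563 in an exon 28661 bp inside the gene. Around the 5′ end, a stretch as long was found in replicate 1 at 16.2% of all coding genes. Among closed genes, to which Ednrb does not belong, the share was 43.6%.

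Ngfr, the p75 neurotrophin receptor, lies on chromosome 11 from 95568818 to 95587735 on the minus strand and had no peak within 1 kb of its single TSS. No base of that window was below an FDR of 0.05 in either library. A strong peak lay just outside it, in an intron, centred 1334 bp inside the gene at chr11:95586301-95586500 in both libraries. This peak had a signal of 2.55 in replicate 1 and of 5.44 in replicate 2, higher than 89.0% and 93.6% of all peaks, and its lowest FDR was 1.21e-12 and 4.03e-132. The replicate 2 value is out of line with the signal: the shared peak upstream of Sox10, with 5.49, had 1.13e-19. Inside the Ngfr peak the replicate 2 FDR stepped from 1.96e-20 at 1370 bp to 4.03e-132 at 1390 bp. What lies behind this step was not tested. At genes with a single TSS, the promoter peak nearest to the 1 kb limit on its inner side was that of Erbb3, 919 bp from the TSS in replicate 2. With windows of 2.5 kb Ngfr would count as open in both libraries, as the fourth of the 7 genes.

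**Figure D3:**
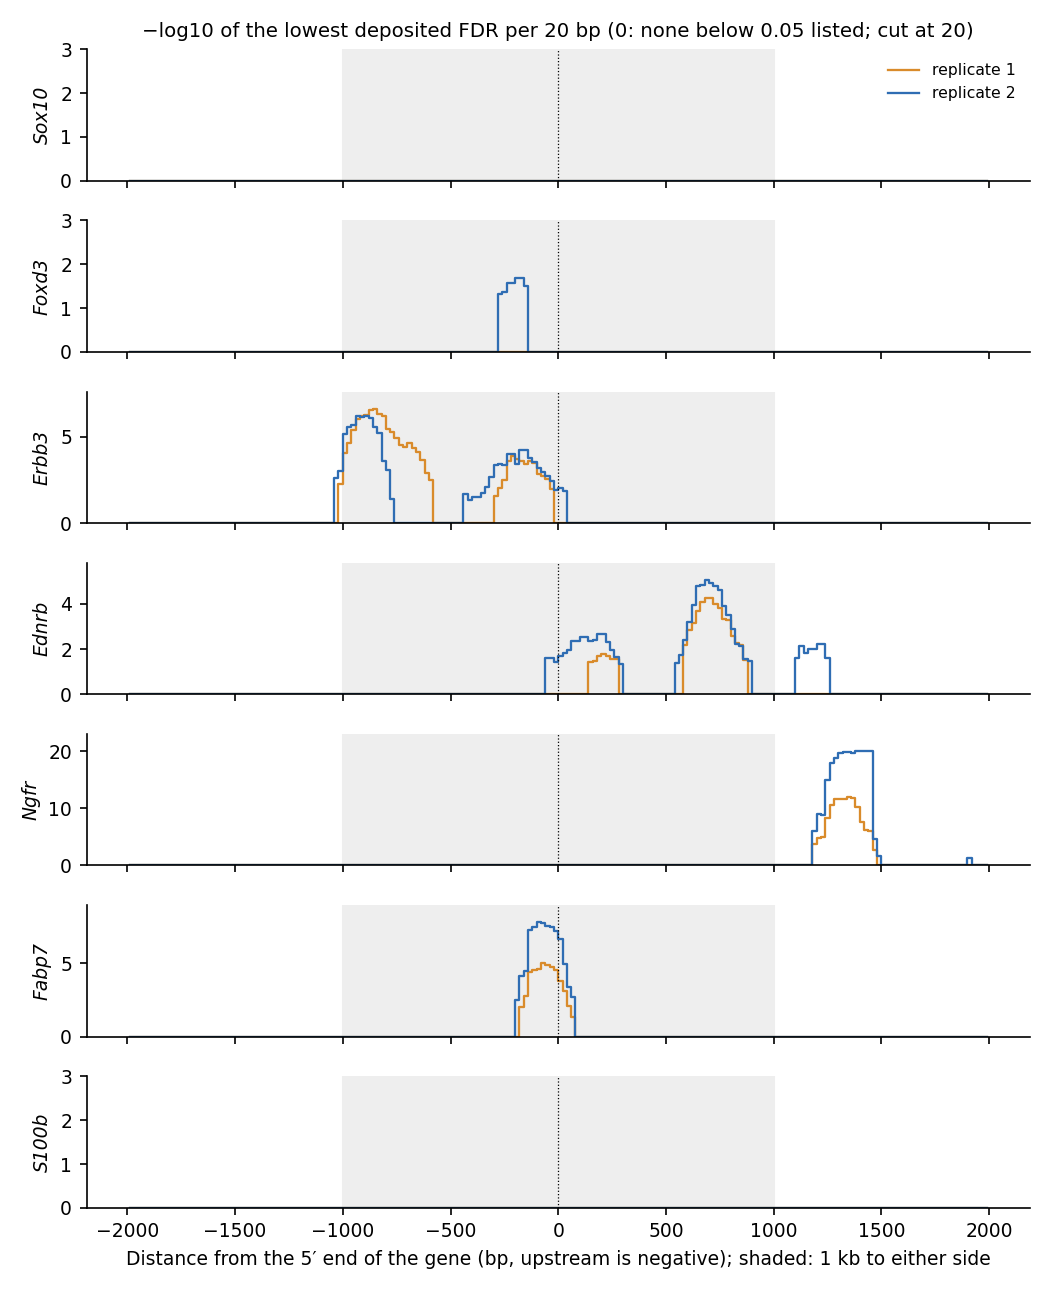
Lowest deposited FDR in each 20 bp, as −log10, by distance in bp from the 5′ end of each gene, upstream negative, in replicates 1 and 2; rows have their own vertical scales, values above 20 are drawn at 20, 0 means no listed value below 0.05, and the shaded band is 1 kb to either side. Sox10 and S100b are flat in both libraries, and the Ngfr signal stands outside the band.

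The proteins of the cytoplasm were split. Fabp7, the brain-type fatty acid binding protein of radial glia and Schwann cell precursors, lies on chromosome 10 from 57784881 to 57788450 on the plus strand. It had 1 peak at its TSS, at the same place in both libraries and in both stricter lists. The signal was 0.896 in replicate 1 and 1.81 in replicate 2, higher than 35.8% and 55.6% of promoter peaks, and the lowest FDR was 1.01e-05 and 1.58e-08. Replicate 1 had 3 footprints there and replicate 2 had 2, of which 2 in each overlapped. Apart from the promoter of Smpdl3a the region around Fabp7 was quiet, with 1 distal peak within 100 kb in replicate 1 and 2 in replicate 2, none of them shared.

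S100b, a calcium-binding protein of mature Schwann cells, lies on chromosome 10 from 76253853 to 76261159 on the plus strand. Neither library had a peak, a footprint or a base below 0.05 within 1 kb of its TSS. The stretch without a listed position covered the whole gene, over 26420 bp in replicate 1 and 33089 bp in replicate 2, and 90.6% and 76.5% of closed genes had one at least as long. The strongest of its 2 shared distal peaks lay 51672 bp upstream, with 0.912 in replicate 1 and 3.97 in replicate 2, and Prmt2 was the nearest coding gene. The other, 49922 bp upstream, had 0.512 and 1.07.

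Among the genes with a promoter peak in both libraries, signal at the 3 marker genes was lower than usual. Their median was 0.895 in replicate 1 and 1.81 in replicate 2, against 2.11 and 4.33 over the 13346 coding genes open in both. Footprints were found in both libraries at the same 3 genes, against 59% of all coding genes, and so were bases with an FDR below 0.05, against 62.3%. These counts largely follow from the peak calls. Of genes with a TSS peak, 100% had such a base in each library, and 96.9% in replicate 1 and 96.7% in replicate 2 had a footprint. At a promoter without a peak the footprint count says nothing more: 0 of 8220 such genes in replicate 1 and 0 of 7322 in replicate 2 had a footprint in their windows. The FDR lists do add something, since 2.85% and 3.31% of those genes had at least 1 base below 0.05. Sox10, Ngfr and S100b were not among them in either library, nor was Foxd3 in replicate 1.

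The genes also differed in the CpG content of their promoters, which moves with accessibility over all genes. In the 500 bp to either side of the 5′ end the ratio of observed to expected CpG was 0.166 at Sox10, 0.169 at S100b and 0.262 at Fabp7. It was 0.544 at Ednrb, 0.568 at Ngfr, 0.6 at Erbb3 and 0.819 at Foxd3, against a median of 0.558 over all coding genes. With coding genes divided by this ratio into 10 groups of equal size, the group of each gene gives its own background. There 12.6% were open in both libraries for Sox10 and S100b, 21.7% for Fabp7 and 68.2% for Ednrb. That share was 85.3% for Ngfr and Erbb3 and 96.2% for Foxd3. Fabp7 was thus open in a group where most genes were closed, while Ngfr and Foxd3, without a peak in both libraries, stood in groups where most were open. The part of CpG content in the calls at the 7 genes was not tested.

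**Figure D4:**
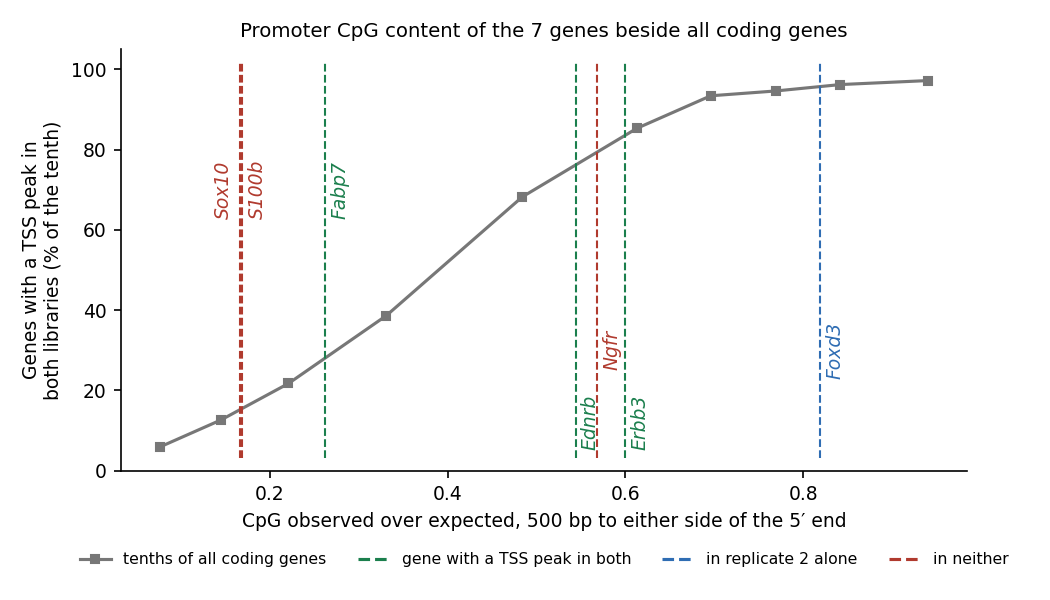
Share of coding genes with a TSS peak in both libraries, in %, for 10 equal groups of genes by the ratio of observed to expected CpG near the 5′ end, each square at the median ratio of its group. Dashed lines mark the 7 genes, coloured by where their promoter peak was found; Sox10 and S100b stand at the CpG-poor end and Foxd3 at the CpG-rich end.

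Distal peaks were about as frequent around the 7 genes as around others. At least 1 distal peak shared by the libraries lay within 100 kb of 4 of the 7 genes, against 73.4% of all coding genes. The median was 2.0 shared peaks for the 7 genes and 2.0 for all. Ngfr had 8, and 96.5% of coding genes had fewer. Sox10 had 3, Erbb3 and S100b had 2 each, and Foxd3, Ednrb and Fabp7 had none. Of the 15 shared peaks, 2 had the marker gene as the nearest coding gene, both at Ngfr. These were the intron peak and one 30244 bp upstream with 0.588 in replicate 1 and 1.08 in replicate 2. The strongest of the 15, with 3.29 and 8.29, lay 53784 bp downstream of the Ngfr 5′ end and nearest to Nxph3. Around Erbb3 the 2 shared distal peaks lay 23189 bp upstream, with 1.19 and 3.13 and Rps26 nearest, and 53191 bp downstream, with 1.77 and 3.54 and Esyt1 nearest. Nearness alone does not show which gene a distal site serves.

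In replicate 2 a run of weak peaks lay in the introns of Ngfr. Between 4 and 7 kb inside the gene, from 95580941 to 95583780 on chromosome 11, replicate 2 had 8 peaks of 0.132 to 0.369, of which 7 were centred in an intron and 1 in an exon. Of these, 5 were in the stricter list, 1 footprint lay among them, and the lowest FDR was 5.09e-10 over 2092 bases below 0.05. Another 2 such peaks, of 0.237 and 0.264, lay 7 to 8 kb upstream. Replicate 1 had 0 bases below 0.05 in either place. By contrast, the replicate 2 peak of Erbb3 nearest to Esyt1, described above, had a like FDR of 5.35e-10 with a signal of 3.54. A second run of this kind lay 80 to 84 kb upstream of Ngfr, within the gene Phb, so that weak runs were not limited to Ngfr. It had 5 peaks of 0.0968 to 0.369 in replicate 2, of which 3 were in the stricter list, with a lowest FDR of 2.58e-13 and 0 bases below 0.05 in replicate 1. In the stricter list of replicate 2, 6297 peaks had a signal below 0.4, or 12.5%, against 471 or 1.7% in replicate 1. What sets these weak peaks apart was not tested.

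**Figure D5:**
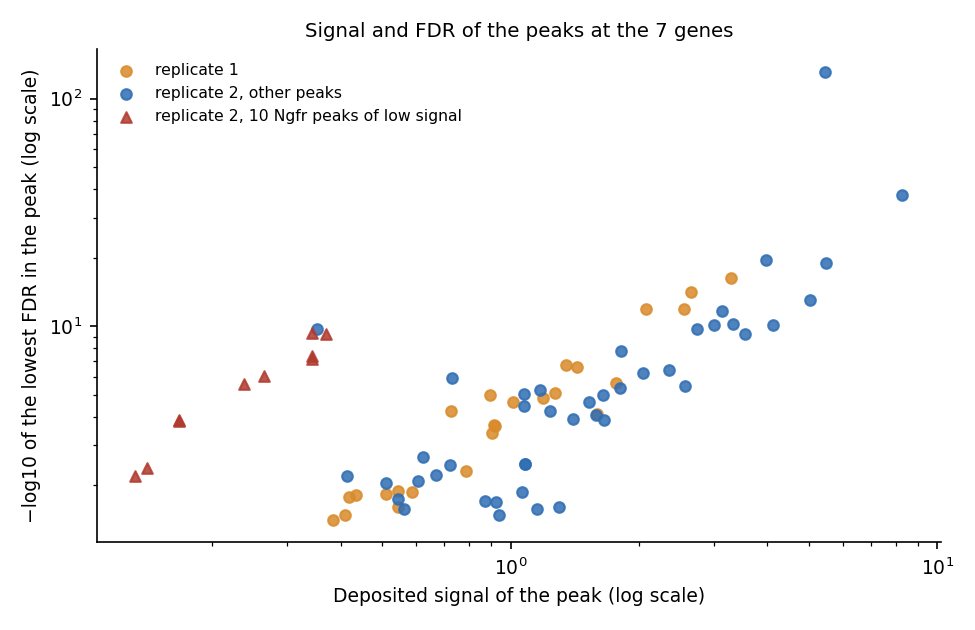
Deposited signal against −log10 of the lowest FDR in each peak, both on log axes, for the distal and promoter peaks of the 7 genes in replicate 1 and replicate 2. The 10 weak Ngfr peaks of replicate 2, drawn as triangles, lie to the left of the main trend.

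The printed sequences were searched on both strands for strings that known factors bind. Foxd3 holds the cAMP response element TGACGTCA, which occurs in 1.64% of promoter peaks of replicate 2 within 200 bp around their centres, and 7 of its 8 bases lie in the single footprint there. The other matches of the strings first chosen held 0 footprint bases. They were the TEAD string GGAATG at bases 42 to 47 of Erbb3 and the AP-1 string TGANTCA at bases 156 to 162 of Sox10. At Ngfr the TFAP2 string GCCNNNGGC lay at bases 136 to 144 and 174 to 182. The other counts cover the 200 bp around the centres of the 15 distal and 5 promoter peaks that the libraries shared at the 7 genes, and distal and promoter peaks are given apart because their letters differ over the genome. The SOX string ACAAAG was found in 1 of the 15 distal peaks in either library, at S100b, against 13.5% of all shared distal peaks. ACAATG, also bound by SOX factors, was found in 2 distal peaks in replicate 1, the site upstream of Sox10 and one at S100b, and in 1 in replicate 2, at S100b, against 7.49% and 7.37%. At the Sox10 site the centres of the peaks differ between the libraries, and the string lies in the replicate 1 window alone. None of the 5 promoter peaks held either string. The Foxd3 promoter peak of replicate 2, which is not among them, held ACAAAG within its 200 bp, against 8.98% of promoter peaks of replicate 2. In replicate 2 the distal peaks held the E-box CAGCTG in 4 of 15, against 17.3%, and the TFAP2 string GCCNNNGGC in 3, against 11.1%. The KLF and SP string GGGCGG was in 2, against 14.6%, the TEAD string GGAATG in 2, against 11.1%, and the AP-1 string TGANTCA in 2, against 9.46%. These counts were the same in replicate 1. Of the 5 promoter peaks, GGGCGG was found in 0 in replicate 2 and 1 in replicate 1, against 56.8% and 56% of all shared promoter peaks. The forkhead string TGTTTAC, the NR5A string CAAGGTCA, the GATA string AGATAA, the ETS string CCGGAAGT and TGACGTCA were found in 0 of the 20 peaks in either library. In that order, 2.1%, 2.34%, 6%, 0.474% and 0.492% of all shared distal peaks of replicate 2 held them. Among its shared promoter peaks the shares were 1.32%, 0.699%, 2.2%, 4.53% and 2.26%. With strings this rare, 0 of 20 does not set the 7 genes apart.

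Another pair of strings was added after the sequences had been read. CAGGNGGC, the core bound by the insulator protein CTCF, lies wholly inside the long footprint of the Erbb3, Ngfr and Sox10 sequences. At Erbb3 and Sox10 it spans bases 85 to 92 of the printed strand and at Ngfr bases 90 to 97; at Sox10 it reads in reverse, as GCCACCTG. In replicate 2 it was found in 7 of the 15 shared distal peaks, against 18.4% of all shared distal peaks, and in 1 of the 5 promoter peaks, against 12.8%. In replicate 1 the counts were 7 and 0. At the Erbb3 promoter the replicate 1 peak is centred 799 bp upstream, so the string falls outside its 200 bp. Replicate 1 still had a footprint of 24 bp there that held the string. In each of the 8 peaks of replicate 2 the string lay in a replicate 2 footprint of 20 bp or more. Of the shared peaks at the 7 genes, 12 had a replicate 2 footprint that long, and 8 of these held the string inside it. Of all 20112 footprints that long in replicate 2, 13.8% held it. The Erbb3, Ngfr and Sox10 sequences, read before the string was chosen, are among the peaks counted. These counts are therefore partly fixed by that choice. CCAAT, the box bound by NF-Y, lies as ATTGG at bases 127 to 131 of the Fabp7 sequence, inside its second footprint. The matches at bases 57 to 61 of Fabp7, 48 to 52 of Erbb3 and 14 to 18 of Ednrb held 0 footprint bases. In replicate 2 CCAAT was found in 3 of the 5 promoter peaks, against 24.6%, and in 2 of the 15 distal peaks, against 21.6%. Those 3 promoter peaks are printed above, so that count too is partly fixed by the choice of string. In replicate 1 CCAAT was in 2 promoter and 3 distal peaks. In the printed sequences no match overlapped another. A match describes letters and does not show that the factor was bound.

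Other genes of the same pathways, 45 in a list chosen by function, had TSS peaks in both libraries for 31 genes, or 68.9%, near the 61.3% of all coding genes. Genes of the Schwann lineage had them at 10 of 18, neural crest genes at 10 of 13, and ligands, receptors and partners of the 7 marker genes at 11 of 14. The median signal of those open in both was 1.16 in replicate 1 and 2.51 in replicate 2. The peak of Prx, periaxin, a protein of myelinating Schwann cells, with 4.13 and 10.4, lay 8887 bp inside the gene in replicate 2 and within 1 kb of a TSS of Gm15541. The peaks of Pmp22, a myelin protein, with 1.76 and 3.56, and of Egr2, a factor of myelination, with 1.78 and 4.31, lay 3979 and 1986 bp inside the gene in replicate 2. Cnp, a myelin enzyme, with 1.51 and 3.20, and Ncam1, a cell adhesion protein, with 1.94 and 3.76, had theirs at the 5′ end.

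Crest factors and ligands were also represented. Snai1, a repressor that acts as crest cells leave the epithelium, had 2.48 in replicate 1 and 6.35 in replicate 2, Mitf, a factor of pigment cells, 2.03 and 3.28, and Msx1, a homeobox factor, 1.67 and 3.24, all at the 5′ end. The ligands of the receptors above were open too. Nrg1, which binds Erbb3, had 1.54 and 4.58 at a TSS 874298 bp inside the gene in replicate 2, and Edn1, an endothelin, had 1.13 and 5.50. Ece1, the enzyme that makes active endothelins, had 2.20 and 4.34. Genes with no TSS peak in either library included Mag, a myelin gene, Cdh19 and Gfra3, which mark Schwann cell precursors and glia, and Dhh and Zic1. Edn3, the ligand of Ednrb named after its values were seen, had a peak of 0.563 in replicate 1 alone. Many of these genes are also active outside the crest, and the part of other cells was not tested.

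Promoters of the gland's other cell types were read in the same way. Of 8 cortex markers, 3 had a TSS peak in both libraries, with 1.77 and 5.07 at Nr5a1, and with none in either library at Cyp11b1, Hsd3b1 and Mc2r. Chromaffin markers had them at 8 of 12, with 2.85 and 8.12 at Chgb, and Th, Dbh and Pnmt had none in either. Endothelial markers had them at 3 of 8, capsule and fibroblast markers at 3 of 4 and leukocyte markers at 1 of 4, against 61.3% of all coding genes. With the stricter lists the counts were 1 of 8 cortex, 2 of 12 chromaffin, 2 of 8 endothelial, 2 of 4 capsule and fibroblast and 0 of 4 leukocyte markers, against 54.8%. Several defining genes of the labelled tissue thus lack a TSS peak, as Sox10 does. Replicate 1 held 46031 peaks and 98364 footprints, and replicate 2 held 87387 peaks and 141983 footprints. Of the replicate 1 peaks, 83.9% were found in replicate 2, and of the replicate 2 peaks, 44.9% were found in replicate 1.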

How the data were processed

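DNase-seq lists of 2 adrenal gland libraries were used as the authors deposited them, on assembly mm10 per the labels. The deposited peak lists hold 1 signal value per peak, called per library, and how it was scaled was not stated by the labels or file headers. The longer list of each library was the main set and the shorter one the stricter set. The deposited FDR values, p-values adjusted for many positions, refer to the rate of DNase I cuts at each place and are listed below 0.05, and every footprint entry carries 0.01, taken as a p-value threshold. Tools, filters and read numbers, not given in the sources used here, could not be taken into account, so no counting error could be attached to a value.

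Peaks, footprints and FDR positions were intersected with GENCODE release M21 TSS windows of 1 kb to either side, with Python 3.11.15, pandas 2.3.3, numpy 2.4.6 and pysam 0.24.0; figures used matplotlib 3.10.9. The interval code was tested on simulated data. A shared peak is one of replicate 2 overlapped by at least 1 bp of a replicate 1 peak, and distal means centred over 1 kb from every annotated TSS. Signal is not compared between libraries, whose scaling may differ. The percentile of a promoter peak is its rank among promoter peaks of its library. B6CASTF1/J reads sit on a C57BL/6J reference, which may lower signal at divergent sites. All 7 genes are described. Of the pathway genes, up to 12 with the highest mean signal and up to 12 with no TSS peak are named, except for some that are not reported here. The genes, lists and strings were chosen with earlier results of these data known. Alternatives were the stricter lists, other windows and distances, other overlaps, equal numbers of peaks and each library alone. No test was run, with 1 group of 2 libraries.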

Additional observations from a re-analysis of the deposited data

How the results depend on the processing

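The count of 3 genes with a promoter peak in both libraries stayed at 3 with the stricter lists, windows of 500 bp, the 5′ end alone, equal numbers of peaks and overlapping peaks, and was 4 with windows of 2500 bp, which add Ngfr. Leaving out a library gave 3 to 4, with Foxd3 added where replicate 1 was left out. The 31 pathway genes ranged from 25 with the 5′ end alone to 37 without replicate 1. The 15 shared distal peaks fell to 5 within 50 kb and to 2 where the gene had to be nearest, and were 20 to 46 with a library left out, 20 without replicate 2 and 46 without replicate 1. The single shared distal peak upstream of Sox10 became 0 within 50 kb and 1 to 3 with a library left out, 3 without replicate 1. The promoter footprints, 28 over both libraries, were 10 when found in both and 14 in each library alone. The 0 bases below an FDR of 0.05 at closed promoters became 746 with windows of 2500 bp, which take in the Ngfr intron peak. Of 46 alternatives, 33 stayed within the spread allowed for their kind and 13 moved. Counts were allowed a fixed fold change, and signals the spread between the libraries, whose scaling may differ. Some of the 33 could not move. The 0 bases cannot rise with a lower FDR cut, a narrower window or a library left out. At Foxd3 and Fabp7 the only promoter peak of a library is also the one nearest to the 5′ end. The signals at Erbb3 and Ednrb were lower for the peak nearest to the 5′ end, as given above. Ranks in place of signal give the same order within a library by construction and were not run apart. No paired analysis was possible because there is 1 group and no test. Depth is unknown and replicate 2 holds more peaks, and whether a site called in replicate 2 alone, as at Foxd3, was absent or undetected in replicate 1 was not tested.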
